A study of Mus musculus with 61 samples.

Results

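Differences between 6 inbred mouse strains within the hippocampus are described here from the 12 hippocampus arrays of a series of 61 arrays, 2 arrays for each strain, chosen because their labels name this region. The strains, all wild type, were 129S6/SvEvTac, C57BL/6J, A/J, DBA/2J, C3H/HeJ and FVB/NJ. Each array held RNA from the hippocampi of 1 male mouse aged 8 weeks that had received no treatment, and both arrays of a strain came from independent mice. 129S6/SvEvTac mice came from Taconic and the mice of the other 5 strains from the Jackson Laboratory, so that supplier and strain cannot be told apart for 129S6/SvEvTac. The other 49 arrays measured the bed nucleus of the stria terminalis, hypothalamus, periaqueductal gray and pituitary gland of the same strains, mostly as pools of several mice, and are used only to set the hippocampal differences beside those of other regions. All values are signals of Affymetrix mouse genome 430 2.0 arrays, in arbitrary linear units, and each probe set is a group of short probes against 1 transcript.

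The hippocampus is a folded structure of the medial temporal brain in which granule cells of the dentate gyrus project to CA3 pyramidal neurons, and these in turn to CA1 pyramidal neurons. It is needed for spatial and contextual memory, and new granule cells are born in it throughout adult life. Mice of an inbred strain are close to genetically identical, so that expression differences between strains reared alike are commonly used to look for effects of DNA variants. A variant near a gene can change that gene's own transcript in any tissue where it is expressed, while a variant acting in 1 cell type or through 1 regulator can change expression in 1 region. A variant that lies under an array probe can also change the signal without any change in the transcript.

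Mean signals of the 12 arrays lay between 187 and 196 and their medians between 44.5 and 60.1. The correlation of log2 signals between both replicates of a strain was lowest in A/J, at 0.959, and highest in DBA/2J, at 0.986, and 8 of the 12 arrays correlated best with their own replicate. The array of A/J replicate 2 had the highest median and correlated best with FVB/NJ replicate 2. Spike-in control transcripts had geometric mean signals of 466 and 499 on both 129S6/SvEvTac arrays and of 576 to 838 on the other 10, and the part of this difference in the results was not tested. Summed signals of 8 choroid plexus genes ranged from 890 to 6693 and differed within strains, for example from 1342 to 6693 between both C57BL/6J mice, and none of these genes passed the test between strains. In bulk tissue, fewer cells of a type and less RNA per cell cannot be told apart.

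The first question was how much of the hippocampal transcriptome differed between strains. Of 41608 probe sets tested, 2487 (5.98%) differed between the 6 strains at an adjusted p under 0.05 (limma F test, Benjamini-Hochberg adjustment over all probe sets tested), and 1544 of these spanned more than 1 log2 unit between the lowest and the highest strain mean. The called probe sets that name 1 gene covered 1610 genes. The median span was 1.25 log2 units among called probe sets and 0.55 among all tested. When only the brightest probe set of each gene was kept, 968 of 17229 genes (5.62%) were called. With 2 mice per strain the count depended on single arrays. It was 1331 and 1463 without 129S6/SvEvTac replicates 1 and 2, 1409 and 1417 without those of C57BL/6J, 1542 and 1472 without those of DBA/2J, 1629 and 1634 without those of FVB/NJ, and 4180 without A/J replicate 1. 928 probe sets, or 37.3% of those called, were called in each of the 12 fits that left out 1 array. When each array was scaled to 1 median, 1456 were called. After quantile scaling, which gives every array the same set of values, 2607 were called. When the 129S6/SvEvTac strain was left out, 1296 were called among the other 5 strains.

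The 10 genes with the smallest p values (adjusted p from 3.87e-06 to 5.44e-06, limma F test) spanned at least 2.76 log2 units between strain means, and each was called in all 12 fits that left out 1 array. Most had 1 or 2 strains at a low level and the rest close together. They were chosen for small p values, so strains that do not overlap are a result of that choice. Cap1, which binds actin and recycles its monomers, had signals of 89.0 and 86.5 on the C57BL/6J arrays and of 782 to 946 on the other 10. No C57BL/6J value came near the others, and both Cap1 probe sets were called.

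Lin7c, a scaffold protein that holds receptors and channels at synapses and cell junctions, had the widest span of these genes, 5.50 log2 units. Its signals were 19.2 and 12.3 in C3H/HeJ, 706 and 710 in C57BL/6J, 736 and 585 in A/J, 723 and 695 in DBA/2J, 625 and 579 in 129S6/SvEvTac and 696 and 618 in FVB/NJ. C3H/HeJ lay 5.26 ± 0.18 (SE, n = 2) log2 units below 129S6/SvEvTac, the next lowest strain (adjusted p = 3.21e-06, limma), and all 4 probe sets of Lin7c were called. Signals below 12.8, the level to which the lowest values were raised before taking logs, carry no order, so differences that involve them are understated.

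Scn2b encodes an auxiliary beta subunit of voltage-gated sodium channels. Its signals were 53.1 and 52.7 in 129S6/SvEvTac, 123 and 75.5 in FVB/NJ, and 1084 to 1295 on the 8 arrays of C57BL/6J, DBA/2J, A/J and C3H/HeJ. The low strains did not overlap the high ones, and 2 of 3 Scn2b probe sets were called.

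Uqcr10, a subunit of respiratory complex III, was at -2.11 to 8.61 on the A/J and FVB/NJ arrays and at 168 to 243 on the other 8. Values below 0 arise from background subtraction and mean only that no signal above background was measured. 2 of its 3 probe sets were called. Soga3 was at 500 to 622 in 129S6/SvEvTac, A/J and C57BL/6J and at 82.3 to 112 in C3H/HeJ, DBA/2J and FVB/NJ, with a gap between the groups of 3 strains wider than the spread within either.

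The classical class I antigen-presenting molecule H2-K1 was low in A/J and C3H/HeJ, at 41.8 to 45.9, and higher in the other 4 strains, at 232 to 337. 3 of its 4 probe sets were called. The probe sets of class I genes can pick up near-identical family members and differ in sequence between strains, so this gene is uncertain. Dzip1, which acts in cilium formation, was at -9.0 and -3.71 in 129S6/SvEvTac and at 157 to 366 elsewhere, but only 1 of its 5 probe sets was called. Snhg14, a long non-coding transcript that runs antisense to Ube3a in neurons, was at 51.4 and 52.0 in DBA/2J and at 486 to 782 on the other 10 arrays, in 1 of 3 probe sets.

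The remaining members of the 10 were Tmem87a and the kinase gene Riok3. Tmem87a had signals of 15.9 and 6.52 in C57BL/6J against 220 to 325 elsewhere, and it has 1 probe set. Riok3 had signals of 52.7 and 53.3 in 129S6/SvEvTac against 267 to 362, in 1 of 4 probe sets. Whether sequence differences under the probes took part in such gaps was not tested, and where only some probe sets of a gene were called the transcript as a whole is not shown to differ.

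The second question was which strains differed from which. 129S6/SvEvTac took part in the 5 pairs with the most called probe sets, and most of these were lower in it. Against C57BL/6J, 1728 probe sets (4.15%) differed, 587 higher and 1141 lower in 129S6/SvEvTac. Against FVB/NJ there were 1561 (3.75%, 553 higher and 1008 lower), against C3H/HeJ 1218 (2.93%, 460 and 758), against DBA/2J 1175 (2.82%, 458 and 717) and against A/J 1089 (2.62%, 442 and 647). The surplus of lower calls against A/J depended on the scaling. Of the calls in that pair, 40.6% were higher in 129S6/SvEvTac as deposited and 45.6% after quantile scaling. The share was 51.9% when each array was scaled to 1 median. These 5 counts share the same 2 arrays of 129S6/SvEvTac, whose spike-in signals were the lowest. Without replicate 1 of that strain the counts were 506, 480, 375, 420 and 447 in the same order, and without replicate 2 they were 947, 778, 655, 744 and 620. The count against A/J was 3155 without A/J replicate 1. Other single arrays that moved these counts by more than 1.5 times gave counts between 420 and 801.

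**Figure D1:**
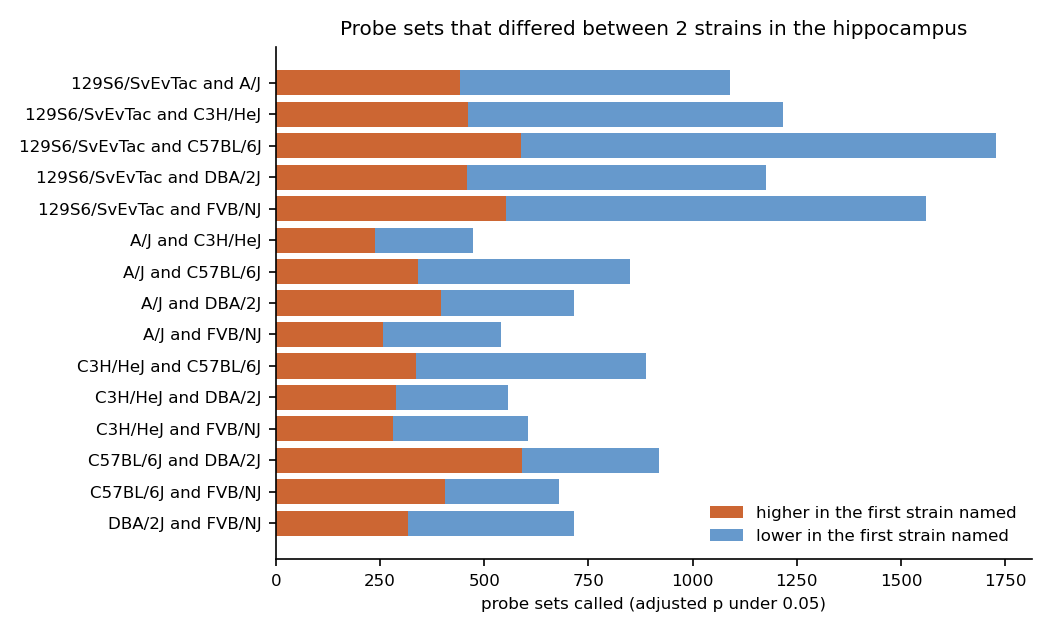
Number of probe sets called in each of the 15 pairs of strains in the hippocampus (limma, adjusted p under 0.05, 2 arrays per strain), split into those higher and those lower in the first-named strain. The 5 pairs with 129S6/SvEvTac hold between 1089 and 1728 calls and the other 10 between 474 and 919.

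Among the other 5 strains, C57BL/6J differed most from DBA/2J, with 919 called probe sets (2.21%, 590 higher and 329 lower in C57BL/6J), from C3H/HeJ with 889 (2.14%, 552 and 337) and from A/J with 850 (2.04%, 508 and 342). It differed from FVB/NJ in 679 (1.63%, 406 and 273). C57BL/6J was thus the higher strain in the larger share of each of these 4 pairs, and this direction held under median scaling, but the direction against A/J turned without A/J replicate 1, when 64.4% of the calls were higher in A/J. The pairs of A/J and DBA/2J and of DBA/2J and FVB/NJ each had 716 calls (1.72%), C3H/HeJ and FVB/NJ had 604 (1.45%), C3H/HeJ and DBA/2J had 557 (1.34%), A/J and FVB/NJ had 540 (1.3%), and A/J and C3H/HeJ had the fewest, 474 (1.14%). In A/J and C3H/HeJ equal numbers, 237 and 237, were higher in each strain as deposited, while 34.7% of the calls were higher in A/J after median scaling. The share higher in A/J against DBA/2J went from 55.4% to 36.8%, that higher in A/J against C57BL/6J from 40.2% to 29.1%, and that higher in DBA/2J against FVB/NJ from 44.3% to 55.9%. After quantile scaling these shares were 49.4%, 38.5% and 49.3%, and that higher in A/J against C3H/HeJ was 46.4%. The place of A/J in this order depends on which of its arrays is kept. Leaving out A/J replicate 2, the array with the highest median signal, lowered the 4 counts of A/J with C57BL/6J, DBA/2J, C3H/HeJ and FVB/NJ. Leaving out A/J replicate 1, so that replicate 2 alone stood for the strain, raised all 4. The shares higher in A/J were then 64.4% against C57BL/6J, 70.5% against DBA/2J, 73.1% against C3H/HeJ and 67.5% against FVB/NJ. In each of the 10 pairs some array of its own strains lowered the count by more than 1.5 times when left out, to as low as 188 for C3H/HeJ and DBA/2J without DBA/2J replicate 2.

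Each pair had its own widest difference, and a few genes filled several of these places. Lin7c held the widest difference in all 5 pairs of C3H/HeJ, being low in that strain. Prune2 was at 797 and 820 in C57BL/6J and between 19.5 and 61.1 on the other 10 arrays, and 2 of its 4 probe sets were called. Phgdh, the enzyme that commits glucose carbon to serine synthesis, was at 24.4 to 71.8 in 129S6/SvEvTac and DBA/2J and at 649 to 848 in the other 4 strains. The low and high groups of Phgdh did not overlap, in this and 1 other of its 4 probe sets. Pdxdc1 was at 453 to 592 in C3H/HeJ and DBA/2J and at 6.93 to 38.6 in the other 4 strains, and all 4 of its probe sets were called.

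Most probe sets that divided the strains cleanly set 1 strain against the other 5. A clean division means that every pair across 2 groups of strains was called and no pair within them. There were 582 such divisions of 1 strain against 5, 171 of 2 against 4 and 87 of 3 against 3. The most frequent pair of strains on one side was 129S6/SvEvTac with C57BL/6J, in 26 probe sets, and the most frequent trio was 129S6/SvEvTac with C3H/HeJ and DBA/2J, in 25.

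Among these shared divisions, Baiap2l1, a membrane-bending adaptor protein of the actin cytoskeleton, was at 255 to 334 in A/J and C3H/HeJ and between -9.55 and 7.63 in the other 4 strains. Both of its probe sets were called. Ssbp2, a single-stranded DNA-binding transcriptional co-factor, was at 168 to 194 in 129S6/SvEvTac and C57BL/6J and under 10 on all 8 other arrays, in 2 of 4 probe sets. Mapk14, the stress-activated kinase p38 alpha, was at 171 to 212 in A/J, C3H/HeJ and FVB/NJ by 1 probe set and at -17.3 to 15.6 in the other 3 strains, and 2 of its 6 probe sets were called. Gdpd3 was at 234 to 285 in 129S6/SvEvTac and FVB/NJ and at -1.58 to 14.8 elsewhere.

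The third question was which genes set a single strain apart from each of the other 5. A probe set was counted for a strain when the F test called it and all 5 of the strain's pairs were called in the same direction. 703 probe sets met this for at least 1 strain and 1784 of the 2487 for none. 271 probe sets set 129S6/SvEvTac apart (0.651%), 147 C57BL/6J (0.353%), 111 DBA/2J (0.267%), 77 FVB/NJ (0.185%), 57 A/J (0.137%) and 48 C3H/HeJ (0.115%). Of the 271, 37 were higher and 234 lower in 129S6/SvEvTac. C57BL/6J had more that were higher, 85 against 62, and the other 4 strains had more that were lower, 81 of 111 in DBA/2J, 53 of 77 in FVB/NJ, 34 of 57 in A/J and 29 of 48 in C3H/HeJ. After quantile scaling the 6 counts were 273, 154, 114, 83, 52 and 49, and the side changed in no strain. After median scaling the 6 counts were 129, 92, 66, 52, 35 and 23. Under this scaling the side changed only in C3H/HeJ, to 13 higher and 10 lower, and in DBA/2J the share higher went from 27.0% to 40.9%. Other settings turned the side in 3 strains. A/J had more higher than lower without its replicate 1 (857 and 157), without its replicate 2 (29 and 22) and with no filter on dim probe sets (39 and 35). FVB/NJ had 45 higher and 32 lower without its replicate 1, and C57BL/6J had 62 higher and 65 lower with a floor at the 10th percentile and 65 higher and 77 lower with a stricter filter on dim probe sets. The count of 129S6/SvEvTac was 86 without its replicate 1 and 169 without its replicate 2, and that of A/J was 1014 without A/J replicate 1, while that of C3H/HeJ was 92 without C3H/HeJ replicate 1. The count of C57BL/6J fell to 78 without C57BL/6J replicate 2, that of DBA/2J to 44 without DBA/2J replicate 2, that of FVB/NJ to 47 without either DBA/2J array, that of A/J to 24 without DBA/2J replicate 2 and that of C3H/HeJ to 22 without DBA/2J replicate 1, since each count needs every pair called. In all 12 fits that left out 1 array, 61 of the 271, 60 of the 147, 36 of the 111, 35 of the 77, 19 of the 57 and 15 of the 48 still set the same strain apart.

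**Figure D2:**
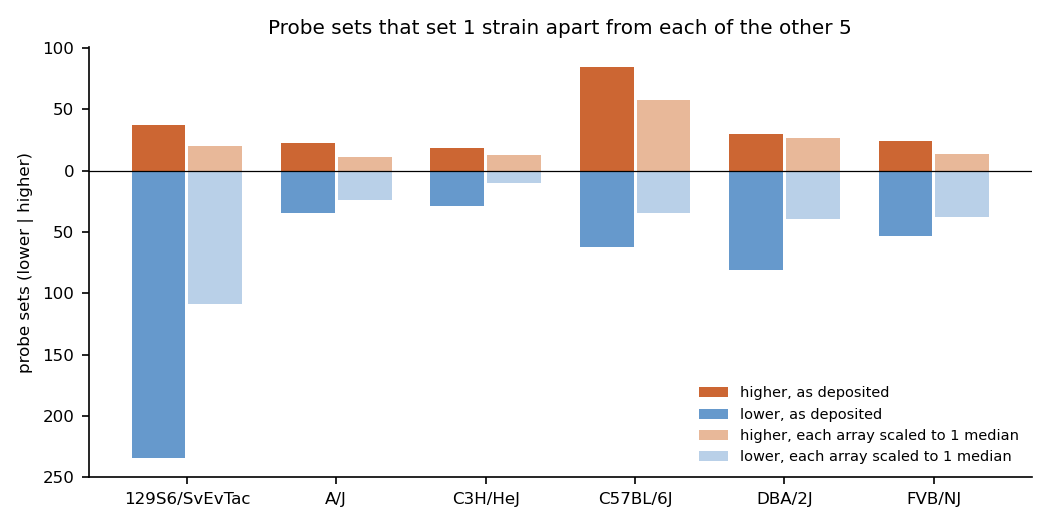
Probe sets that set each strain apart from all other 5 strains in the hippocampus, higher and lower, as deposited and after each array was scaled to 1 median (counts of 41608 tested). 129S6/SvEvTac has 234 lower and 37 higher as deposited, and fewer of both after scaling.

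In 129S6/SvEvTac the widest gaps below the other strains were in Dzip1, Tial1, Lztfl1, Ppcdc and Elavl1. Lztfl1, which regulates protein traffic into cilia, was at 17.3 and 15.8 against 152 to 202 on the other 10 arrays, a gap of -3.26 ± 0.13 (SE) log2 units to A/J, the nearest strain (adjusted p = 7.05e-06, limma). Only 1 of its 5 probe sets was called. Ppcdc, an enzyme of coenzyme A synthesis, was at 15.1 and 6.44 against 114 to 172, in 1 of 3 probe sets. Both genes were called without each array in turn. The RNA-binding protein Tial1 was at 3.86 and 5.86 against 81.9 to 267, with a wide spread between both A/J mice (253 and 81.9), and was not called without either 129S6/SvEvTac array (adjusted p up to 0.0813).

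Of the genes higher in 129S6/SvEvTac, Fxyd2, which modulates the sodium-potassium pump, was at 151 and 174 against 12.99 to 41.1. Ro60, an RNA-binding autoantigen, was at 275 and 251 against 25.6 to 64.9. The 129S6/SvEvTac arrays lay above the other 10 for both genes, but the calls rested on few arrays. Fxyd2 was not called in 6 of the 12 fits, those without either array of 129S6/SvEvTac, C57BL/6J or FVB/NJ (adjusted p up to 0.179), and Ro60 was not called without either 129S6/SvEvTac array (up to 0.115). Tsacc was at 47.8 and 56.4 against 5.19 to 15.6 and Stbd1, which binds glycogen, at 85.1 and 84.9 against 15.6 to 34.2. The call for Tsacc held without each array, and that for Stbd1 was lost without either 129S6/SvEvTac array (adjusted p up to 0.121).

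In A/J, Mtm1, the lipid phosphatase myotubularin, was at 680 and 604. The other strains had signals of 35.7 to 172, with FVB/NJ the nearest at 172 and 146, and the gap was 2.02 ± 0.16 (SE) log2 units (adjusted p = 0.000237, limma). 2 of 3 Mtm1 probe sets were called. Tlr1, a receptor for bacterial lipopeptides, was at 36.7 and 39.2 in A/J and at no more than 12.1 on the other 10 arrays, all of them below the level to which low values were raised.

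Lefty1, a secreted inhibitor of Nodal signalling, was low in A/J, at 3.77 and 5.36, against 135 to 236 in the other 5 strains. A/J and the others were far apart, with a gap of -3.54 ± 0.19 (SE) log2 units to DBA/2J (adjusted p = 2.18e-05, limma). The 14-3-3 protein gene Ywhaq was at 156 and 187 in A/J against 666 to 955, and 4 of its 8 probe sets were called. 1 of 3 probe sets of Gfap, the intermediate filament of astrocytes, was at 17.5 and 16.6 in A/J and at 117 to 228 elsewhere. The other Gfap probe sets were not called, so this gap concerns 1 stretch of the transcript.

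In C3H/HeJ, a probe set of Casp9, the initiator caspase of the mitochondrial death pathway, was at 149 and 127. On the other 10 arrays its signal lay between -12.3 and 6.12, and all 3 probe sets of Casp9 were called. Hbegf, a ligand of the EGF receptor, was at 359 and 385 in C3H/HeJ against 78.6 to 122, in 1 of 2 probe sets. Nme7 was at 491 and 552 against 166 to 198, also in 1 of 2. Both C3H/HeJ mice lay above the other 10 for each of these genes, which were chosen for such gaps. Among the lower genes, apart from Lin7c, the DNA glycosylase gene Mbd4 was at 23.2 and 19.5 against 79.6 to 123, and the reductase gene Akr1e1 at 75.4 and 36.2 against 155 to 213. Akr1e1 was not called without 129S6/SvEvTac replicate 2 (adjusted p = 0.0517).

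In C57BL/6J the highest gap was that of Prune2, 4.29 ± 0.41 (SE) log2 units above DBA/2J (adjusted p = 0.000683, limma). Pttg1, the securin that restrains separase until anaphase, was at 1228 and 1458 against 45.5 to 112 on the other 10 arrays, and 2 of its 3 probe sets were called. Kcnq5, a subunit of the M-type potassium channel, was at 183 and 186 by 1 of its 3 probe sets and at no more than 13.3 on the other arrays. A probe set annotated to the Mir1931 locus was at 160 and 170 against 12.8 at most; it does not measure the mature microRNA.

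The genes lower in C57BL/6J were led by Tmem87a and Cap1. Clasp2, which stabilises growing microtubule ends, was at 43.9 and 53.9 against 256 to 535, and 3 of its 5 probe sets were called. Bloc1s6, a subunit of a complex needed for lysosome-related organelles, was at 18.6 and 13.2 against 76.5 to 139. Zfp704 was at 0.41 and -18.2, while the other strains ranged from 49.8 in 129S6/SvEvTac to 199.99 in DBA/2J.

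**Figure D3:**
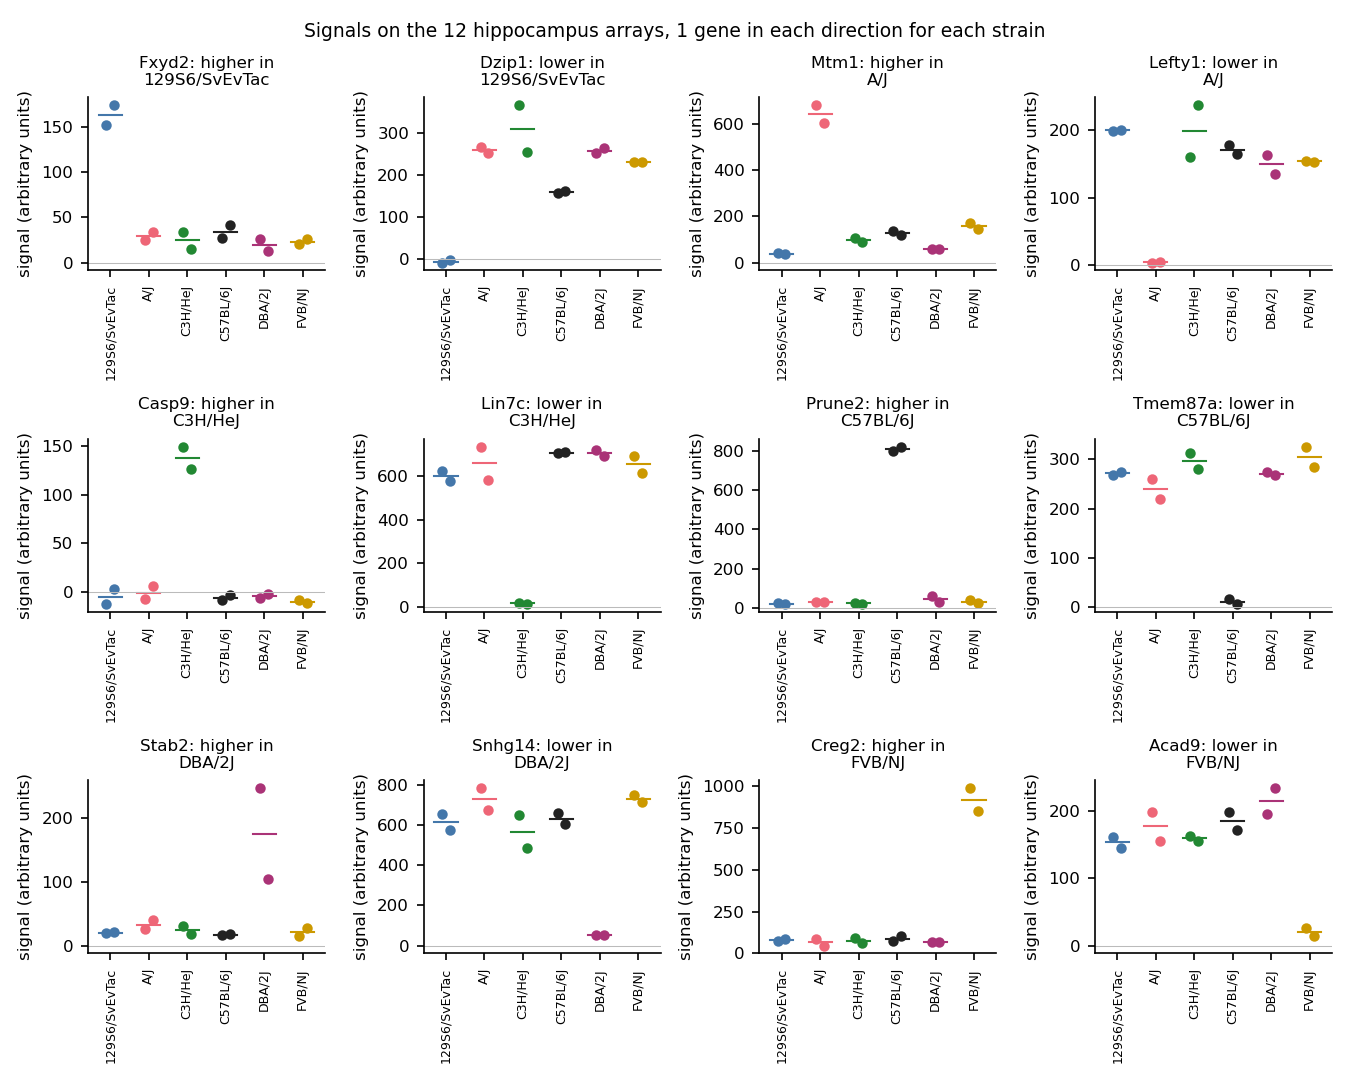
Signal of 12 genes that set a strain apart, 2 per strain, in arbitrary linear units; points are the 12 hippocampus arrays and lines the strain means (n = 2). In each panel both arrays of 1 strain lie apart from the other 10, as for Lin7c in C3H/HeJ at 19.2 and 12.3. The genes were chosen for such gaps.

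In DBA/2J, lower genes had the clearest separation. The paraspeckle RNA Neat1 was at 55.6 and 52.1 against 266 to 401, in 1 of 2 probe sets. Atxn1, a transcriptional regulator whose repeat expansion causes a spinocerebellar ataxia in humans, was at 65.2 and 58.7 against 292 to 543, in 1 of 3. Rgcc, a regulator of the cell cycle, was at 58.3 and 66.7 against 301 to 632, in both of its probe sets. Each of these was called without each array in turn. Of the higher genes, Prrc2c was at 850 and 935 against 158 to 330 in 1 of 6 probe sets, and Ctse, an aspartic protease of endosomes, at 346 and 364 against 66.2 to 170. Stab2, a scavenger receptor for hyaluronan, was at 246 and 104 in DBA/2J and at 15.4 to 39.4 elsewhere. Both DBA/2J values were above the rest but differed widely from each other, and Stab2 was not called without either array of 129S6/SvEvTac or C57BL/6J or without DBA/2J replicate 1 (adjusted p up to 0.122).

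In FVB/NJ, Creg2, a secreted glycoprotein of the brain, was at 987 and 850 against 46.3 to 102, a gap of 3.40 ± 0.30 (SE) log2 units to C57BL/6J (adjusted p = 0.000481, limma). Gnb1, a beta subunit of heterotrimeric G proteins, was at 80.5 and 66.3 by a dim probe set against 16.2 at most, and all 3 of its probe sets were called. Capzb, which caps the fast-growing end of actin filaments, was at 503 and 460 against 1634 to 1963, in 3 of 4 probe sets. The growth factor Fgf1 was at 75.7 and 63.6 against 199 to 335, in 2 of 3. Arhgap21 was at 266 and 162 against 1029 to 1323. Acad9, needed for assembly of respiratory complex I, was at 25.6 and 14.9 against 144 to 234. FVB/NJ did not overlap the other strains in any of these 6 genes, which were chosen for such gaps.

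Members of hippocampal gene groups were then counted, each gene by its brightest probe set. 26 lists held 324 different genes, of which 295 were measured and 294 tested; the other 29 were not analysed here. 38 different genes were called, against 5.62% of all genes counted in this way, and the median span of strain means over all such genes was 0.48 log2 units. The lists were drawn up with earlier results of these data known, so their counts are a description.

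Markers of the hippocampal neuron classes were counted by class. Among 13 principal neuron genes only Slc17a7, the vesicular glutamate transporter of these cells, was called, and the median span was 0.42. Its signals were 979 and 1225 in A/J, 1376 and 1359 in DBA/2J, 1494 and 1621 in 129S6/SvEvTac, 1757 and 1624 in C57BL/6J, 1970 and 2147 in FVB/NJ and 2114 and 2379 in C3H/HeJ. A/J lay below the other strains and C3H/HeJ overlapped FVB/NJ. None of 11 CA2 and CA3 genes (median span 0.40) or of 12 dentate granule cell genes (median span 0.79) was called by its brightest probe set. Of 7 CA1 genes 2 were called, the transcription factor Pou3f1, which ranged from 310 in C57BL/6J to 530 in 129S6/SvEvTac, and the extracellular protease Klk8, at 75.4 and 78.3 in DBA/2J and 137 to 194 elsewhere. The other Pou3f1 probe set was of similar brightness and was not called (adjusted p = 0.118, limma F test). Summed signals of the 7 CA1 genes were 4223 to 4451 in 129S6/SvEvTac and at most 3781 in the other strains. That strain also had the highest sums of interneuron genes (10141 to 10347, at most 9829 elsewhere) and neurogenesis genes (4253 to 4324, at most 4108 elsewhere). Bright genes weigh most in such sums, and the brightest of the 13 neurogenesis genes was Hopx, with a mean signal of 1225. The mean was highest in 129S6/SvEvTac in 6 of these 13 genes and lowest there in 3, and Dcx was among its low strains there. 129S6/SvEvTac did not have the highest sums of principal neuron or of CA2 and CA3 genes. Summed signals of the 12 dentate genes were 4612 to 4832 in C57BL/6J and DBA/2J and at most 4436 elsewhere. None of these sums was tested.

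Of 13 adult neurogenesis genes, Dcx and Sox11 were called. Dcx, the microtubule protein of young migrating neurons, was at 149 to 197 in C57BL/6J, C3H/HeJ and DBA/2J and at 63.4 to 99.7 in 129S6/SvEvTac, A/J and FVB/NJ. The groups of 3 strains did not overlap, though only 1 of 4 Dcx probe sets was called. A Dcx probe set of similar brightness spanned 0.30 log2 units and was not called (adjusted p = 0.798, limma F test). Sox11, a transcription factor of immature neurons, ranged from 68.0 to 223 by its brightest probe set and was called in only 2 of the 12 fits, those without either A/J array (adjusted p otherwise up to 0.126). 2 other Sox11 probe sets were called, with spans of 3.15 and 2.60 log2 units (adjusted p = 0.00375 and 0.00385, limma). Of 14 interneuron genes the neuropeptides Npy and Vip were called. Npy was at 882 and 897 in 129S6/SvEvTac, 765 and 862 in C57BL/6J and 573 to 684 in the other 4 strains, and was not called without either array of 129S6/SvEvTac or FVB/NJ (up to 0.0839). Vip was called in 4 of the 12 fits, those without either array of A/J or C3H/HeJ (otherwise up to 0.116).

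Transmitter receptors were counted by family. 1 of 14 AMPA, NMDA and kainate receptor genes was called, Gria1, at 1938 and 2085 in C57BL/6J and 2505 to 2910 elsewhere, and not without C57BL/6J replicate 1 (adjusted p = 0.0676). The other Gria1 probe set was nearly as bright and spanned 0.08 log2 units (adjusted p = 0.933). None of 6 metabotropic glutamate receptor genes and none of 10 serotonin receptor genes was called. Of 9 GABA-A receptor subunits Gabra2 and Gabrb1 were called. For Gabrb1, 2 of 4 probe sets were called, and they differed in size of span. The brightest spanned 0.47 log2 units and a dimmer one 2.27 (adjusted p = 0.000215, limma F test). The second brightest was not called and spanned 0.14 (adjusted p = 0.824, limma F test). Gabra2 was at 189 and 195 in C57BL/6J and at 457 to 602 on the other 10 arrays, with no overlap, in 3 of 5 probe sets, and it was called without each array in turn. Gabrb1 ranged from 1161 to 1648, lowest in C57BL/6J and FVB/NJ, and was called in 6 of the 12 fits, without a call when either array of 129S6/SvEvTac or C57BL/6J, A/J replicate 2 or DBA/2J replicate 2 was left out (up to 0.0932).

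6 of 23 potassium channel genes were called (26.1%), and the median span over the 23 genes was 0.39. Kcnj9, a G protein-gated inward rectifier that mediates slow inhibition, was at 176 and 155 in C57BL/6J and 472 to 694 elsewhere. Its family member Kcnj3 was at 454 and 429 in C57BL/6J and 245 to 316 elsewhere. Only 1 of 4 probe sets was called for each of these genes, and a Kcnj3 probe set of similar brightness was not (adjusted p = 0.633). The other family member called, Kcnj6, was lowest in 129S6/SvEvTac, at 61.9 and 47.8, and FVB/NJ, at 75.3 and 63.4, with 106 to 157 in the other 4 strains. Only 1 of 5 Kcnj6 probe sets was called, and 1 of similar brightness was not (adjusted p = 0.595, limma F test). Kcnn2, a calcium-activated channel, was at 267 and 270 in C57BL/6J and 327 to 428 elsewhere. Kcnh1 and Kcnk1 spanned less than 0.5 log2 units. The call for Kcnj9 held without each array, those for Kcnj3 (adjusted p up to 0.124) and Kcnn2 (up to 0.0765) were lost without either C57BL/6J array, that for Kcnh1 (0.0521) without C57BL/6J replicate 2, and that for Kcnj6 (0.0675) without 129S6/SvEvTac replicate 2. Kcnk1 lost its call without either array of C57BL/6J, DBA/2J or FVB/NJ and without A/J replicate 2 (up to 0.0756).

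Of 21 synaptic plasticity genes, Camk4, Creb1 and Ppp1r1a were called. Camk4, a nuclear calcium-calmodulin kinase, was at 744 and 688 in C3H/HeJ, 585 and 677 in FVB/NJ and 537 and 528 in C57BL/6J, against 306 to 449 in the other 3 strains, in 3 of 5 probe sets. The upper and lower groups of 3 strains did not overlap. Creb1, a transcription factor that Camk4 can phosphorylate, was called in 1 of 6 probe sets. It was at 237 and 237 in 129S6/SvEvTac and 326 to 445 elsewhere. A Creb1 probe set of similar brightness spanned 0.24 log2 units and was not called (adjusted p = 0.746, limma F test). The call for Creb1 was lost without either array of 129S6/SvEvTac or C57BL/6J or without A/J replicate 2. Ppp1r1a spanned 0.36 log2 units and was called in 3 of the 12 fits, those without A/J replicate 1 or either C3H/HeJ array. Of 12 stress hormone genes Crhbp, which binds corticotropin-releasing hormone, was called, at 254 and 241 in C57BL/6J and 129 to 207 elsewhere, but in only the 2 fits without a C3H/HeJ array (otherwise up to 0.216).

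A list of 18 measured genes with DNA variants known between inbred strains had 8 calls (44.4%) and a median span of 1.02. These genes were listed because variation in them is known, so the count is not independent of strain. Glo1, which detoxifies methylglyoxal, was at 583 and 541 in FVB/NJ, 724 and 748 in C57BL/6J and 1106 to 1691 in the other 4 strains, and all 4 of its probe sets were called. Alad, an enzyme of haem synthesis, was at 90.3 and 117 in C57BL/6J and 207 to 407 elsewhere. Nnt, the mitochondrial transhydrogenase, was lowest in C57BL/6J, at 212 and 217, but close to C3H/HeJ at 241 and 292, and was not called without either C57BL/6J array (adjusted p up to 0.0695). Wdfy1 was at 125 and 139 in C57BL/6J and 294 to 417 elsewhere, and was not called without C57BL/6J replicate 1 (0.0521).

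Of 13 genes of antigen presentation 4 were called. B2m, the common light chain of class I molecules, was at 950 and 939 in C57BL/6J, 416 to 476 in A/J and C3H/HeJ, and 499.95 to 675 in the other 3 strains. A/J and C3H/HeJ, the strains with low H2-K1, were thus also the lowest in B2m, though its other probe set was not called (adjusted p = 0.0548, limma F test). The brightest H2-D1 probe set was at 593 and 572 in FVB/NJ, 119 and 119.8 in C3H/HeJ and 231 to 358 elsewhere, while another H2-D1 probe set was at 130.3 to 151 in A/J and DBA/2J and no higher than 8.04 in the other 4 strains. The probe sets of H2-D1 thus ranked the strains differently. The class II gene H2-Eb1 was dim and was called only in the 2 fits without a C3H/HeJ array (adjusted p otherwise up to 0.153). Ifit3 and Ifitm3 were the called members of 13 interferon-induced genes, Ifit3 lowest in A/J at 5.76 and 8.23, and they were called in 2 and 3 of the 12 fits. Ifit3 was called only without a 129S6/SvEvTac array (otherwise up to 0.121), and Ifitm3 only without either C3H/HeJ array or without DBA/2J replicate 1 (otherwise up to 0.143).

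Of 18 respiratory chain genes Ndufs4, an accessory subunit of complex I, was called, at 484 and 515 in FVB/NJ, 569 and 610 in A/J and 735 to 943 in the other 4 strains. FVB/NJ and A/J were also the strains with low Uqcr10, but Ndufs4 spanned only 0.87 log2 units. The other Ndufs4 probe sets were dimmer and were not called.

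Markers of glia and vessels were counted to show whether cell types moved with strain. Of 10 microglial genes 3 were called. Cx3cr1, the fractalkine receptor of microglia, was at 38.6 and 39.0 in 129S6/SvEvTac and at 107 to 173 on the other 10 arrays, in 1 of 2 probe sets, and set that strain apart. The complement subunits C1qb and C1qc were highest in C57BL/6J, C1qb at 304 and 358 and C1qc at 366 and 356, against 111 to 226 and 170 to 290 elsewhere. C1qb lost its call without either C57BL/6J array (adjusted p up to 0.0726) and C1qc without either array of C57BL/6J, DBA/2J or FVB/NJ (up to 0.174). The other 7 microglial genes were not called. The mean was lowest in 129S6/SvEvTac in 4 of the 10 microglial genes (5 after median or quantile scaling) and highest there in 0. It was lowest in FVB/NJ in 5 (4 after quantile scaling). Summed signals of the 10 genes were 2474 to 2516 in 129S6/SvEvTac, above the 2310 to 2378 of DBA/2J and the 2353 to 2362 of FVB/NJ. C1qb and C1qc were at 209 to 290 in 129S6/SvEvTac.

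Among 12 oligodendrocyte and myelin genes the mean was highest in C57BL/6J in 11, under each of the 3 scalings tried, and their summed signal was 16782 to 18201 in C57BL/6J and 12279 to 15867 in the other strains. Only Opalin, a membrane protein of mature oligodendrocytes, was called, at 384 and 337 in C57BL/6J, 290 and 317 in 129S6/SvEvTac and 128 to 221 in the other 4 strains, and not without C57BL/6J replicate 1 (adjusted p = 0.0539). The part of myelinated tissue in other differences of C57BL/6J was not tested. Of 10 astrocyte genes Gja1, the gap junction protein connexin 43, was called, from 1480 in 129S6/SvEvTac to 2035 in FVB/NJ, in 4 of the 12 fits. It was called only without an A/J or C3H/HeJ array (otherwise up to 0.117). The second brightest Gja1 probe set was not called (adjusted p = 0.253, limma F test). No endothelial (of 8), red blood cell (of 3), thalamic (of 8) or striatal (of 8) marker was called.

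Immediate early genes are switched on in neurons within minutes of firing. 2 of 13 such genes, Fos and Egr1, passed the F test, and the median span was 1.02. Mean signals were highest in C57BL/6J in 11 of the 13 genes and lowest in FVB/NJ in 8, and both C57BL/6J arrays lay above both FVB/NJ arrays in 11. With log2 means, under the 3 scalings tried, C57BL/6J was highest in 9 to 11 and FVB/NJ lowest in 8 or 9. Summed signals of the 13 were 5309 to 6464 in C57BL/6J and 2833 to 3136 in FVB/NJ. The other 11 genes did not pass the test, and the order of the strains over the list was not tested.

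Fos, a transcription factor subunit induced by calcium and cAMP signals, was at 463 and 310 in C57BL/6J, 204 and 259 in 129S6/SvEvTac, 186 and 159 in DBA/2J, 152 and 124 in C3H/HeJ, 108 and 112 in A/J and 88.2 and 64.4 in FVB/NJ. The 6 strains did not overlap in Fos, although neighbours in this order were close compared with the spread between mice. C57BL/6J exceeded FVB/NJ by 2.33 ± 0.23 (SE) log2 units (adjusted p = 0.000877, limma), and Fos was called without each array in turn. Egr1 was at 2297 and 2079 in C57BL/6J and 1139 and 1081 in FVB/NJ, with a difference of 0.98 ± 0.13 (SE) log2 units (adjusted p = 0.0046, limma). Its F test was not passed without either array of 129S6/SvEvTac or FVB/NJ or without C57BL/6J replicate 1 (adjusted p up to 0.1). Each mouse gave 1 value. Dissections ran from late morning through the afternoon by the study's methods, and the hour of each mouse within that window was not given in the sources used here.

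The Fos promoter is shown because Fos had the widest span of the called immediate early genes. The sequence is RefSeq's for build GRCm38.p6, plus strand, chr12:85473640-85473939, 250 bases before to 50 after the start, with matches to TGACG, the core letters of a cAMP response element, in capitals on either strand.
Fos promoter: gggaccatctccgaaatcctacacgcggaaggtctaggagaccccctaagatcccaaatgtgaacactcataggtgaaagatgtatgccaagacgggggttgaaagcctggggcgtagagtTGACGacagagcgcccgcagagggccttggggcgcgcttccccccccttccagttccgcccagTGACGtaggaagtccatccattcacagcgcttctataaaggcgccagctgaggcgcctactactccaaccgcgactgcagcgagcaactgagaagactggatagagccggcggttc
The 5 letters occur on either strand in 20.8% of 32851 promoters in the table. Of the 10 immediate early genes that have a promoter there, 9 hold them in at least 1 promoter. The first share counts promoters and the other counts genes, so they cannot be compared directly. A match is only a description of the reference sequence, which is that of C57BL/6J.

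**Figure D4:**
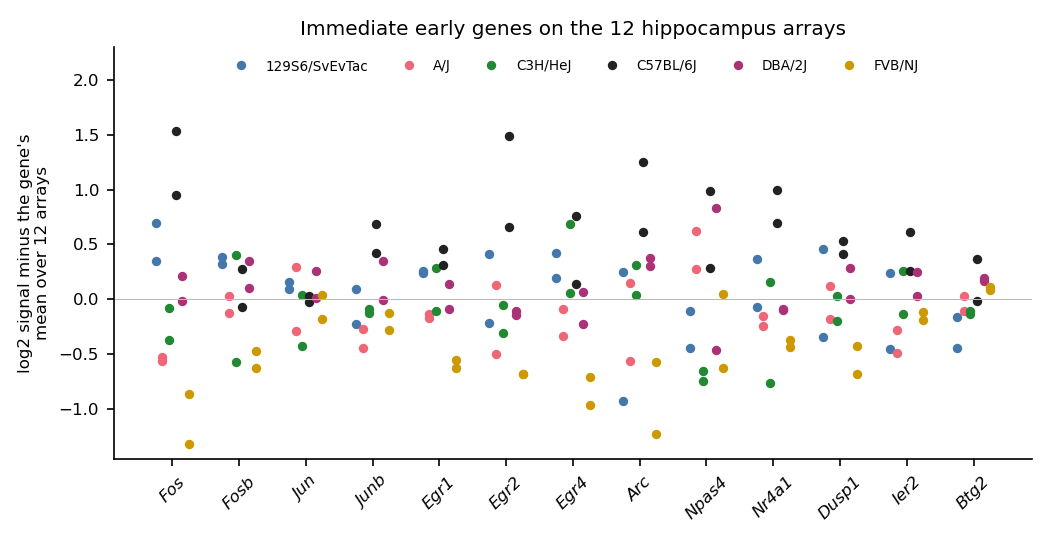
Signals of 13 immediate early genes on the 12 hippocampus arrays, as log2 signal minus the gene's mean over the arrays. Both C57BL/6J arrays lie above both FVB/NJ arrays in 11 of the 13 genes, and only Fos and Egr1 passed the F test between strains.

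The last question was whether the hippocampal strain differences were also present in the other 4 regions, measured on separate arrays. For each strain the mean of the other regions was compared with that of the other 5 strains. Of the 271 probe sets that set 129S6/SvEvTac apart in the hippocampus, 183 were called in the same direction there, against 16.7% of all probe sets called in either direction. The same held for 137 of 147 in C57BL/6J (19.8% of all), 103 of 111 in DBA/2J (11.1%), 73 of 77 in FVB/NJ (11.5%), 46 of 57 in A/J (12.9%) and 44 of 48 in C3H/HeJ (10.6%). Calls in the opposite direction numbered 13 in 129S6/SvEvTac, 3 in A/J, 1 in DBA/2J and 0 in each of the remaining strains. F tests within single regions called 14.6% of probe sets in the bed nucleus of the stria terminalis, 3.27% in the hypothalamus, 6.75% in the periaqueductal gray and 23.2% in the pituitary gland. Of the 2487 hippocampal calls, 1617 (65.0%), 907 (36.5%), 1221 (49.1%) and 1540 (61.9%) were among these in the same order, 646 were called in all 4 regions and 459 in none. As shares of the calls of each other region these were 26.2%, 65.7%, 42.6% and 15.5%.

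Several wide hippocampal gaps had a counterpart in the mean of the other 4 regions. In that mean the difference of C3H/HeJ from the mean of the other strains was -4.44 log2 units for Lin7c, and that of C57BL/6J was -4.49 for Tmem87a. The mean of Prune2 in C57BL/6J was 5.30 higher there, that of Creg2 in FVB/NJ 3.29 higher, and the difference of DBA/2J was -4.01 for Snhg14. None of these 5 genes, which are examples from the strains set apart, passed the test of the difference between the hippocampus and the other regions.

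That test compared the strain differences in the hippocampus with their mean in the other 4 regions (limma F test on all 61 arrays) and called 830 of 44065 probe sets (1.88%). 381 of them were among the 2487 hippocampal calls (15.3% of these). In this test all groups shared 1 estimate of the spread, taken mostly from arrays of pooled mice. Each hippocampus array held 1 mouse, so the spread between hippocampi may be understated and the p values too small. In 169 of the 381, the strain farthest from the others was 129S6/SvEvTac with a lower mean, against 565 of all 2487. 106 of the 271 probe sets that set 129S6/SvEvTac apart were among the 830, against 20 of 147 for C57BL/6J, 12 of 111 for DBA/2J, 10 of 77 for FVB/NJ, 7 of 57 for A/J and 6 of 48 for C3H/HeJ. The count of 830 was 386 without 129S6/SvEvTac replicate 1, 1253 without A/J replicate 1 and 1403 without C3H/HeJ replicate 1. On 129S6/SvEvTac arrays of other regions the spike-in geometric means were 527 to 1062, against 466 and 499 in the hippocampus, and the part of that difference in these counts was not tested. Hippocampi were frozen at once while the smaller regions were kept in an RNA-preserving buffer and mostly pooled, so region and handling cannot be told apart.

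Of the named genes that set a strain apart, Kcnq5 had the smallest p in this test (adjusted p = 4.48e-10, limma). Its probe set was at 183 and 186 in the C57BL/6J hippocampus, while the highest array of any other region was at 87.2. The highest group mean there was 78.3, in the C57BL/6J hypothalamus. C57BL/6J was higher in the other regions too, by 1.54 log2 units, so the test concerns the size of the gap. Lefty1 (adjusted p = 1.92e-06, limma) was at 135 to 236 in the hippocampus of 5 strains and at no more than 40.2 on any array of another region, so that the low level of A/J had no counterpart to be seen there.

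Tdo2, which opens the tryptophan ring and marks mature dentate granule cells, had the smallest p in this test among the named genes (6.01e-14, limma). Every array of the other regions was below the level to which low values were raised, so the strain differences there were 0 by construction and the p reflects that no signal was measured elsewhere, not strain differences of another size. It was at 24.8 and 25.4 in 129S6/SvEvTac, 31.1 and 32.2 in DBA/2J, 44.8 and 47.9 in C3H/HeJ, 54.7 and 57.5 in FVB/NJ, 61.6 and 52.4 in A/J and 66.4 and 70.7 in C57BL/6J, and at no more than 9.85 elsewhere. No array of another region reached the lowest hippocampal value, and 129S6/SvEvTac and DBA/2J lay below the other 4 strains. Only 1 of 3 Tdo2 probe sets was called, and the brightest was not (adjusted p = 0.348). Its F test within the hippocampus held in 4 of the 12 fits, those without an A/J or C3H/HeJ array (adjusted p otherwise up to 0.0864). Thbs4, a thrombospondin that promotes synapse formation, was likewise measured mainly in the hippocampus, at 205 and 268 in A/J, 84.5 to 93.0 in C3H/HeJ and C57BL/6J, 29.4 to 64.7 in DBA/2J and FVB/NJ and 11.8 and 24.8 in 129S6/SvEvTac, against at most 29.3 in other regions (adjusted p of the difference = 8.55e-08).

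Camta1 and Bptf behaved otherwise, being measured in every region. Camta1, a calmodulin-binding transcription factor, was at 767 and 816 in the 129S6/SvEvTac hippocampus and 1348 to 1735 in the other strains (adjusted p of the difference between regions = 2.39e-07). Bptf, a subunit of a chromatin remodeller, was at 226 and 257 against 398 to 565 (5.9e-07), and lost its F call within the hippocampus without 129S6/SvEvTac replicate 1 (adjusted p = 0.0583). Only 1 of 4 probe sets of each gene was called in the hippocampus.

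Tmod3, which caps the slow-growing end of actin filaments, was at 118 to 139 in 129S6/SvEvTac and C57BL/6J and at 371 to 510 in the other 4 strains of the hippocampus, while the highest array of another region was at 207 (adjusted p of the difference = 2.45e-06). Col11a1, a fibrillar collagen chain, was at 60.04 and 52.0 in the C57BL/6J hippocampus and 130 to 199 in the other strains (2.11e-06). Ankrd33b was at 8.98 to 95.8 in 129S6/SvEvTac and A/J and 251 to 346 in the other 4 strains, and at most 62.8 in other regions (5.99e-07). Baiap2l1, high in the hippocampus of A/J and C3H/HeJ, reached 93.2 on 1 array of another region (adjusted p of the difference = 4.33e-07, limma F test). Its highest group mean there was 58.3, in the C3H/HeJ pituitary gland. The dim probe sets of Krt12 and Mndal completed the 12 genes with the smallest p in this test among hippocampal calls.

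**Figure D5:**
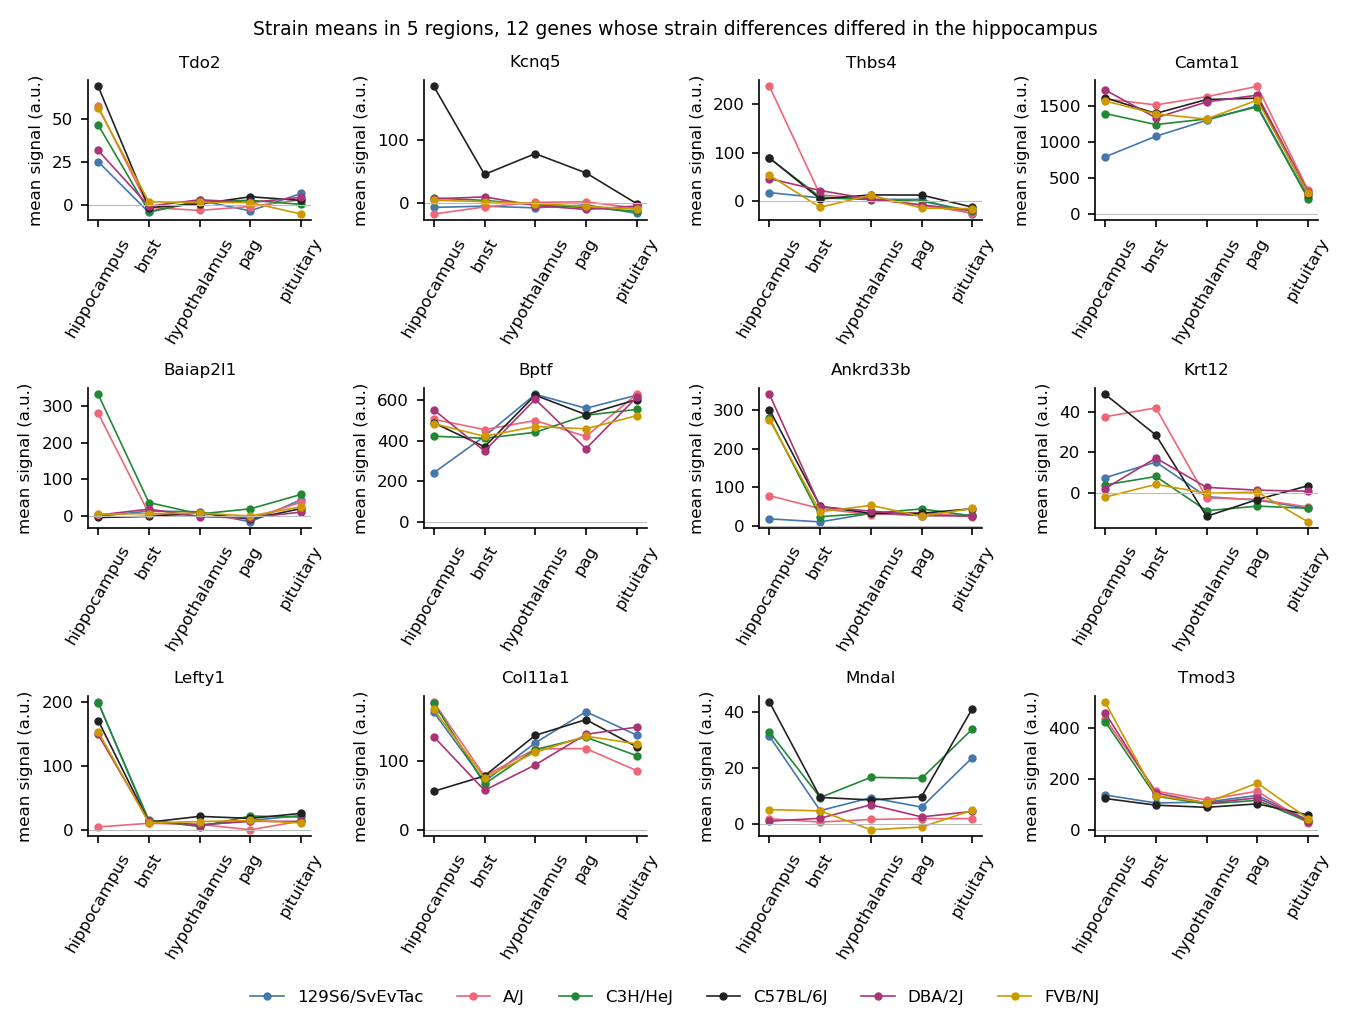
Strain mean signals (n = 2 arrays, 3 for 1 group) in 5 regions for the 12 hippocampal genes whose strain differences departed most firmly from those of the other regions (pag is the periaqueductal gray and bnst the bed nucleus of the stria terminalis), in arbitrary linear units. Tdo2 and Lefty1 have signal mainly in the hippocampus, while Camta1 and Bptf are measured in every region and are low in the 129S6/SvEvTac hippocampus.

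Some genes that set a strain apart in the same direction were neighbours on a chromosome. In the RefSeq gene order of GRCm38.p6, 10 adjacent pairs among 17095 ordered genes both set 1 strain apart. How many such pairs the size of each strain's list would give without any clustering was not computed, so the 10 are a description. In 129S6/SvEvTac, Dzip1 and Dnajc3 on chromosome 14, Zfr and Mtmr12 on chromosome 15, the GABA-A subunit genes Gabra4 and Gabrb1 on chromosome 5, Cttnbp2 and Lsm8 on chromosome 6, and Tmod3 and Tmod2 on chromosome 9 were lower. Nln, Sgtb and Trappc13 followed each other on chromosome 13 and were lower in C3H/HeJ. Adam17 and Ywhaq on chromosome 12 were lower in A/J, and Il17d and Eef1akmt1 on chromosome 14 and Sorl1 and Sc5d on chromosome 9 were lower in DBA/2J. A gene counted here if any of its probe sets set the strain apart: for Gabra4 and Gabrb1 these were not the brightest ones, and for Tmod3 it was a dim probe set, not the one described above, which was low in C57BL/6J too. Where 2 genes lie side by side, whether the array probes read 1 or both transcripts was not tested.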

How the data were processed

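The deposited values are linear signal intensities, background-corrected and scaled, which the authors obtained from Affymetrix mouse genome 430 2.0 arrays with the absolute analysis of TeraGenomics. The software version and the scaling target were not given in the sources used here. Between 4.93% and 6.26% of values per array were below 0. The table held 0 columns of other samples. Intensities were raised to a floor of 12.8, the 20th percentile of all 61 arrays, and log2-transformed. 64 control probe sets and 3429 at the floor on all 12 arrays were left out, leaving 41608 of 45037. Strain means were fitted with limma 3.58.1 in R 4.3.3 (moderated variances with an intensity trend), followed by an F test with 5 degrees of freedom and 15 pairwise contrasts, each adjusted by Benjamini-Hochberg over all tested probe sets, at a threshold of 0.05. The difference from other regions was an F test on all 61 arrays. The number of arrays limits the precision, and p-values rest on the spread between 2 mice per strain.

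Gene names came from the platform annotation of 2016, updated by gene ID with RefSeq's table. 34945 probe sets name 1 gene, 932 several and 9160 none. Genes named are the 10 with the smallest F p, for each strain up to 5 in each direction with the largest gap to the nearest strain, the called list members, 12 with the smallest p for the hippocampus against other regions, 8 with the largest gap between groups of strains and the largest of each pair. The members and lists were chosen with earlier results of these data known. Alternatives varied the floor, transformation, filter, scaling, threshold, samples and test. The scripts were tested on simulated data.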

Additional observations from a re-analysis of the deposited data

Results flagged for a closer look

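In 25 of the 120 named probe sets, the strain differences in the hippocampus differed from the mean of those in the other 4 regions in a direct test of that difference (limma F test on 61 arrays, adjusted over 44065 probe sets, of which 1.88% passed). 12 of the 25 were named because they had the smallest p in this test, so the count is a description. The p values rest on a spread shared with arrays of pooled mice and may be too small. The adjusted p was 6.01e-14 for Tdo2, 4.48e-10 for Kcnq5, 8.55e-08 for Thbs4, 2.39e-07 for Camta1, 4.33e-07 for Baiap2l1, 5.9e-07 for Bptf, 5.99e-07 for Ankrd33b and 7.71e-07 for Krt12. It was 1.92e-06 for Lefty1, 2.11e-06 for Col11a1, 2.32e-06 for Mndal, 2.45e-06 for Tmod3 and 6.71e-05 for Zfp704. It was 0.000707 for Gm13306, 0.000986 for Stbd1, 0.00238 for Gdpd3, 0.00455 for Casp9 and 0.00887 for 1500004A13Rik. It was 0.0225 for the probe set of the Mir1931 locus, 0.0245 for Cx3cr1, 0.0247 for Phgdh, 0.0265 for Gfap, 0.0269 for the brightest probe set of H2-D1, 0.0283 for Tsacc and 0.0394 for Elavl1.

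Gm13306 was at 377 and 385 in C57BL/6J, 114 to 153 in A/J and C3H/HeJ, 59.4 and 50.8 in 129S6/SvEvTac and at no more than 7.29 in DBA/2J and FVB/NJ, and so stood at several levels between strains. 1500004A13Rik was at 10.1 and 11.0 in DBA/2J and 80.3 to 181 in the other strains, in all 3 of its probe sets.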

How the results depend on the processing

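Among 2620 values for 120 named probe sets under the alternatives, 275 lost the F call and 0 changed direction. These probe sets were chosen for being called, for small p values or for wide gaps. A change of direction was therefore unlikely from the start, and its absence says little about how firm the results are. Counts of called probe sets moved as well, though little under quantile scaling, with 2607 by the F test and 813 for the hippocampus against other regions. With each array scaled to 1 median the F test called 1456, and the pairs of 129S6/SvEvTac with A/J, C3H/HeJ, C57BL/6J and FVB/NJ had 613, 613, 844 and 707. Under the same scaling the pairs of A/J with C3H/HeJ, C57BL/6J and FVB/NJ had 277, 429 and 311, those of C3H/HeJ with C57BL/6J, DBA/2J and FVB/NJ 524, 340 and 389, those of C57BL/6J with DBA/2J and FVB/NJ 528 and 430, and DBA/2J with FVB/NJ 463. The probe sets that set a strain apart were then 129 for 129S6/SvEvTac, 35 for A/J, 23 for C3H/HeJ, 92 for C57BL/6J and 66 for DBA/2J, and 485 differed between the hippocampus and other regions. Fitting all 61 arrays together called 4671 by the F test, 1533, 1104, 733 and 940 for A/J with C57BL/6J, DBA/2J, C3H/HeJ and FVB/NJ, 1396 and 893 for C3H/HeJ with C57BL/6J and DBA/2J, 1109 for DBA/2J with FVB/NJ, and 122 that set FVB/NJ apart. At an adjusted p under 0.01 the F test called 1096, a one-way analysis of variance of the signals 1071, and without the 129S6/SvEvTac strain, an alternative chosen after seeing the data, 1296 of 41354, of which 1275 were also called with all 6. A floor at the 40th percentile gave 1335 probe sets for the hippocampus against other regions. The causes were not tested. Signals near the floor carry no order, so differences of dim probe sets are understated.

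Leaving out 1 array at a time, with the lone array of that strain assumed to vary like the others, the F test called 1331 to 4180. The pairs of 129S6/SvEvTac had 447 to 3155 with A/J, 375 to 1433 with C3H/HeJ, 506 to 2057 with C57BL/6J, 420 to 1346 with DBA/2J and 480 to 1841 with FVB/NJ. Those of A/J had 231 to 2382 with C3H/HeJ, 288 to 3537 with C57BL/6J, 231 to 3454 with DBA/2J and 256 to 2334 with FVB/NJ. Those of C3H/HeJ had 311 to 1270 with C57BL/6J, 188 to 585 with DBA/2J and 307 to 697 with FVB/NJ. C57BL/6J had 337 to 959 with DBA/2J and 269 to 724 with FVB/NJ, and DBA/2J 244 to 804 with FVB/NJ. The probe sets that set a strain apart ranged over 86 to 277 for 129S6/SvEvTac, 24 to 1014 for A/J, 22 to 92 for C3H/HeJ, 78 to 160 for C57BL/6J, 44 to 106 for DBA/2J and 47 to 80 for FVB/NJ, and those of the hippocampus against other regions over 386 to 1403.

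The replicate numbers do not pair the mice: correlations of same-numbered deviations ran from -0.317 to 0.361 and 4 of 15 exceeded 0.1. With the replicate number as a block the F test called 2239 and the hippocampus against other regions 806.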
